A study of Mus musculus with 4 samples.

Results

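The axon guidance genes measured here are the ligands and receptors by which a growing axon reads its surroundings: the semaphorins of classes 3 to 7, the neuropilins and plexins, the Slits and their Robo receptors, the ephrins and Eph receptors, the netrins with Dcc, Neo1 and the Unc5 receptors, and the repulsive guidance molecules Rgma and Rgmb. The rule that picks them reads gene symbols and no measured value. In all, 71 of the 41388 genes in the count tables were members, 36 of them ligands and 35 receptors. Ntn3 was not analysed here.

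RNA was sequenced from cells sorted by flow cytometry from dorsal root ganglia of the T11 to S1 segments of C57BL/6 mice that carry a Ret-EGFP reporter. Ret encodes a receptor tyrosine kinase of several sensory neuron classes, and EGFP marks the cells that use its locus. The genotype label, Tg(Ret-EGFP)SJ/, reads as a transgene, whereas the design text has EGFP knocked in at the Ret locus in heterozygotes, in which case all 4 libraries carry 1 modified Ret allele. The 4 libraries are 1 from female ganglia (female A) and 3 from male ganglia (males A, B and C), all staged at postnatal day 2. Per the labels each came from ganglia of 1 animal, with 40 ganglia for the female and 20 for each male. The sources used here do not say how the pool labelled as 1 female came to hold more ganglia than the male pools of the same segments. Whether more than 1 female gave that pool could not be checked. No library was of unsorted or EGFP-negative cells.

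For female A and male A the pool label gave a P2 mouse, but for males B and C it gave an embryo, although the stage label was P2 for all. The first 2 libraries are called the P2-mouse pair and the others the embryo pair. Whether the wording marks a difference of age cannot be told apart from other differences between the pairs. Gene counts summed to between 17388493 and 28066448, and a floor of 3 counts lay between 0.107 and 0.173 CPM (counts scaled to the library's total). Without molecular identifiers, such floors cover counting error only.

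Sensory neuron markers were high in every library: Ret stood at 31.6 to 37.0 RPKM (CPM per kilobase of exon) and Tubb3, a neuronal tubulin gene, at 990 to 2952 RPKM. Markers of cells other than neurons were present and differed between the pairs. The 13 Schwann cell markers summed to 5412 CPM in female A and 8509 in male A, against 3406 in male B and 3387 in male C, and in the P2-mouse pair 10 of the 13 were higher and 1 lower (edgeR, adjusted p under 0.05). For fibroblasts the sums of 10 markers were 1550, 1699, 334 and 358 CPM in the same order, with 8 of the 10 higher. For satellite glia the 8 markers summed to 998, 1099, 541 and 896 CPM (4 higher and 2 lower), and the 10 endothelial and mural markers, 9 of them tested, to 108, 104, 101 and 93.2 CPM (5 higher and 1 lower). Macrophage markers summed to 9.26 CPM or less, C1qa was at 0 in both libraries of the embryo pair, and none of the 3 tested was called. The 10 sensory neuron markers summed to 8126, 7742, 12468 and 11471 CPM, with 2 higher and 5 lower. No one of the glial, fibroblast or neuronal sums overlapped between the pairs. Over all genes tested, however, 73.3% did not overlap in RPKM, and 22.3% were called higher and 20.0% lower. The part of the marked cells in the differences of the guidance genes was not tested. In bulk samples more cells of a type cannot be told apart from more RNA per cell.

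Guidance ligands are secreted or membrane-bound proteins that attract or repel the growth cone, and the receptors it carries decide which of them it follows. Class 3 semaphorins are secreted and bind neuropilins, which signal through plexins; most membrane-bound semaphorins bind plexins directly. Slits act through Robo receptors, netrins through Dcc and Unc5 proteins, and ephrins through Eph receptor tyrosine kinases on touching cells, with signals passing both ways. In the dorsal root ganglion, semaphorins, Slits and ephrins are known for steering and branching sensory axons in the spinal cord, skin and muscle.

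The sequences just upstream of the start site are shown for 5 members on which the results turn: the neighbouring ephrin genes Efna1, Efna3 and Efna4, which lie on 1 strand within 66.3 kb of chromosome 3 and differed widely in level, and Nrp2 and Plxnb3, whose levels differed most between the pairs among members at 1 RPKM or more on average. They are the 250 bases before the RefSeq start (GRCm38.p6), written 5′ to 3′ along the gene's own strand, with CpG dinucleotides in capitals. The gene starts in the count tables lie further upstream for 4 of them, so that the last 191 bases shown for Efna1, 32 for Nrp2, 26 for Efna3 and 13 for Plxnb3 fall inside the counted gene.
Efna1, chr3:89280952-89281201, minus strand: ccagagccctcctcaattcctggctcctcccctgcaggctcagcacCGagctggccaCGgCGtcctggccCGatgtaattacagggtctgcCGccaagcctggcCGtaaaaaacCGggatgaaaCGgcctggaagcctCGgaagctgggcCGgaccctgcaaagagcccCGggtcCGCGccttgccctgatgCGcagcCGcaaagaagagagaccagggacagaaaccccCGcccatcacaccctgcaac
Efna3, chr3:89322940-89323189, minus strand: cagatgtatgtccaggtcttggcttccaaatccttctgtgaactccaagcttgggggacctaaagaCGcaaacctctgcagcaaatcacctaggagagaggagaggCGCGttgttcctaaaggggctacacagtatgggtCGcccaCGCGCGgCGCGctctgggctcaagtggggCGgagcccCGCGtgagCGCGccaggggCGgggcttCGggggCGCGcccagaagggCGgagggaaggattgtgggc
Efna4, chr3:89338029-89338278, minus strand: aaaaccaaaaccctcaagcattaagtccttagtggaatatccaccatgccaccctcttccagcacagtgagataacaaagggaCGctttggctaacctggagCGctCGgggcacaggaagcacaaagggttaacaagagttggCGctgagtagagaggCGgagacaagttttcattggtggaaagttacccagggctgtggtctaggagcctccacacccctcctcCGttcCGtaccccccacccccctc
Nrp2, chr1:62703067-62703316, plus strand: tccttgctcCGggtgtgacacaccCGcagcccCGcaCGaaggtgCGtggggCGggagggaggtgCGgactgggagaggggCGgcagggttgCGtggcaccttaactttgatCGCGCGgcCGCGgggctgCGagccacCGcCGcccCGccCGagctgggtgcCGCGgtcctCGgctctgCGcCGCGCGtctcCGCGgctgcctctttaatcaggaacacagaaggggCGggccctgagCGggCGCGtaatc
Plxnb3, chrX:73756853-73757102, plus strand: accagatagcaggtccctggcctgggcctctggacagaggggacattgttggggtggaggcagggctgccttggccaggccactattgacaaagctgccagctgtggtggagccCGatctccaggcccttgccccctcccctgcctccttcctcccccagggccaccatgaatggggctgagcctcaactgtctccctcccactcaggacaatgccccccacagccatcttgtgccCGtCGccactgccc

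The Nrp2 sequence held 32 CpG dinucleotides, more than 95.4% of the 32851 promoters of the same length, and the Plxnb3 sequence 3, more than 29.0% of them. For Efna3, Efna1 and Efna4 the numbers were 19, 16 and 7. The median was 6 over all promoters and 16 over the 60 members with an entry. The letters GGGCGG, sought on both strands, stood in 44 of the 60 and in 32.7% of all promoters. TATAAA stood in 2 of the 60 and in 12.4% of all, and CCAAT in 18 of the 60 and in 33.8% of all. Of the 5 sequences shown, Nrp2 held GGGCGG 5 times, Efna3 3 times and Efna1 1 time, and Plxnb3 held none of the 3 motifs. These are matches of letters in a window and not binding sites.

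Levels are given as deposited RPKM, which are per kilobase of counted exon. That length departs from the longest annotated transcript for some members, with 2633 against 5698 bases for Rgmb and 16516 against 8591 for Robo2. Ranks and shares between genes are thus approximate. Of the 71 members, 27 stood at 1 RPKM or more in all 4 libraries, against 25.0% of all genes in the tables, and 7 at 10 RPKM or more. At the other end, 36 stayed under 1 RPKM in all 4 libraries and 7 under 0.1 RPKM. The 5 members with the highest mean, Efna1, Efna5, Nrp1, Rgmb and Sema4d, made up 53.5% of the summed RPKM of all 71. The ephrin genes Efna1 and Efna5 alone made up 29.9%. In the order of means, Efna1 (46.6 RPKM), Efna5 (40.8), Nrp1 (30.1), Rgmb (23.7) and Sema4d (15.2) led. The ranges of Efna1 and Efna5 over the 4 libraries overlapped. Those of Efna5 and Nrp1 all but met, with a lowest value of 32.4 for Efna5 and a highest of 32.2 for Nrp1, and Nrp1, Rgmb and Sema4d did not overlap with each other.

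**Figure D1:**
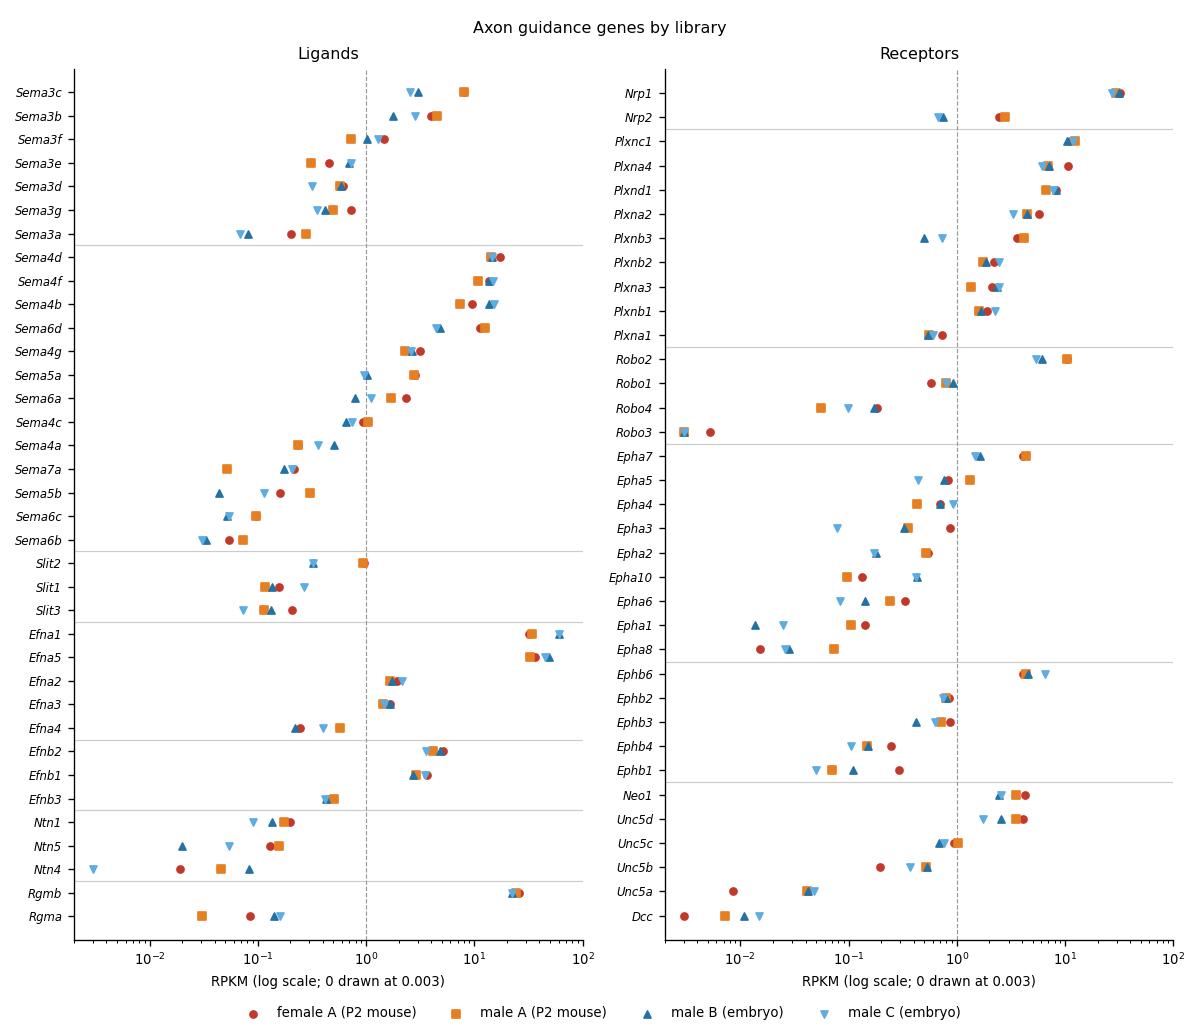
Deposited RPKM (log axis) of the 36 ligand genes and 35 receptor genes in each of the 4 libraries, by family, with a dashed line at 1 RPKM and values of 0 drawn at 0.003. Efna1, Efna5, Nrp1, Rgmb and Sema4d have the highest means, and the P2-mouse libraries (circle, square) part from the embryo libraries (triangles) for Nrp2, Plxnb3, Sema3c, Slit2 and Epha7.

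The comparison of the pairs asks how the pool description goes with the levels of these genes. Of the 71 members 63 had enough counts to be tested, and the quasi-likelihood test of edgeR, adjusted by Benjamini-Hochberg over 15568 genes, called 14 of them higher in the P2-mouse pair than in the embryo pair and 5 lower. That is 22.2% higher and 7.94% lower, against a background of 22.3% higher and 20.0% lower over all genes tested. The higher share thus matched the background and the lower share lay under it. The median log2 fold change was 0.07 over the 63 members and 0.02 over all genes. Pairs that did not overlap in RPKM were seen in 37 of the 63 members, among them all 19 called, against 73.3% of all genes tested. Higher were 7 ligands (Sema3a, Sema3b, Sema3c, Sema5a, Sema6a, Sema6d and Slit2) and 7 receptors (Nrp2, Plxnb3, Robo2, Epha2, Epha7, Neo1 and Unc5d). Lower were 4 ligands (Efna1, Efna5, Sema3e and Sema4b) and 1 receptor (Epha10). The count of calls lay between 13 and 22 when each library was left out in turn, with 8 higher and 6 lower in the males alone (background 13.6% and 11.3%) and 10 higher and 3 lower without male A (11.8% and 10.3%). Without male B 15 were higher and 7 lower (21.4% and 20.0%), and without male C 12 and 5 (22.1% and 20.1%).

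**Figure D2:**
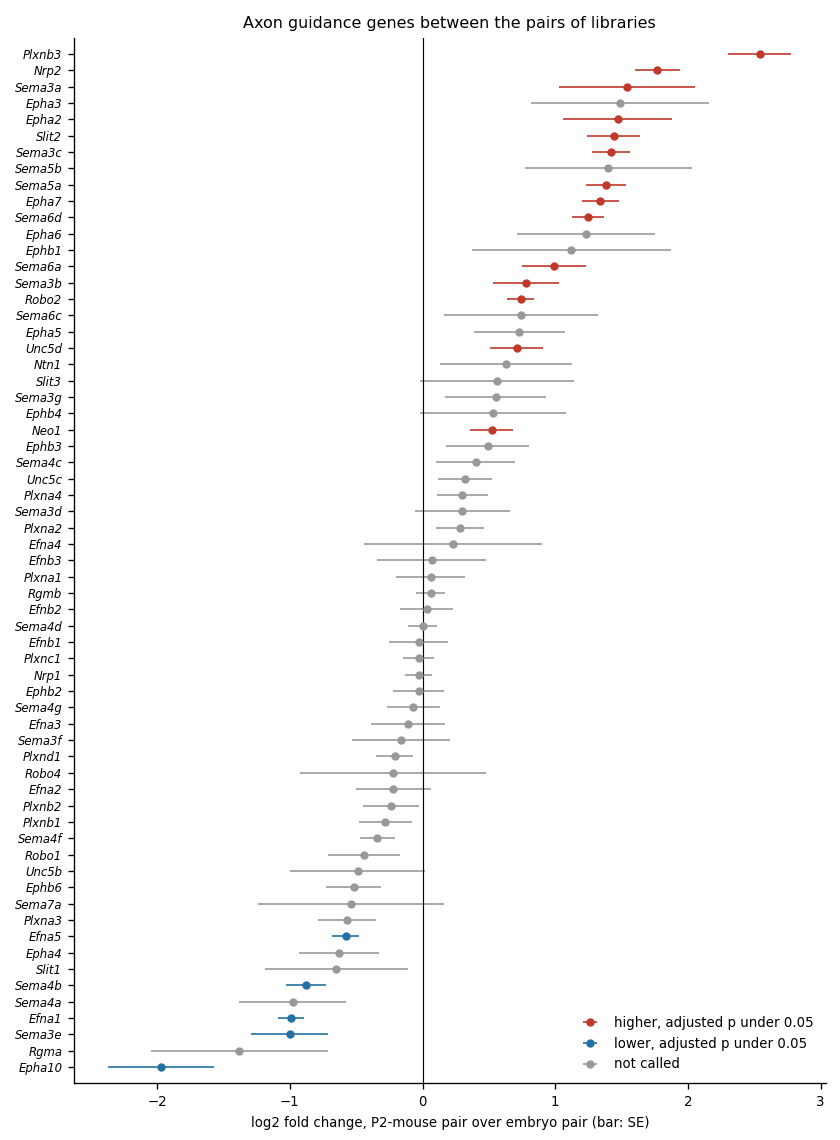
Log2 fold change of the P2-mouse pair over the embryo pair (edgeR, bar: SE) for the 63 tested members, sorted by size. The 14 members called higher run from Neo1 at 0.52 to Plxnb3 at 2.54, and the 5 called lower from Efna5 at -0.58 to Epha10 at -1.97.

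Among the secreted semaphorins the P2-mouse pair stood higher in sum. The 7 genes summed to 15.6 RPKM in female A and 15.0 in male A, against 7.59 in male B and 8.14 in male C. Sema3c, a ligand of both neuropilins, led the family at 8.12 RPKM in female A and 8.01 in male A, against 3.03 in male B and 2.56 in male C. The P2-mouse libraries lay close together and well above the embryo pair, with a log2 fold change of 1.42 ± 0.14 (SE; edgeR adjusted p = 0.000295). Sema3b had 4.00 RPKM in female A and 4.57 in male A, against 1.76 in male B and 2.83 in male C. Its rise was smaller, at 0.78 ± 0.25 on the log2 scale (edgeR adjusted p = 0.0377). That call was lost without female A (adjusted p = 0.103), without male A (0.203) and without male B (0.0704). Sema3a, the classic repellent of sensory axons, was scarce, at 0.204 RPKM in female A and 0.276 in male A, against 0.0818 in male B and 0.0683 in male C, on 37, 31, 12 and 11 counts. It rose by 1.54 ± 0.51 (edgeR adjusted p = 0.0432), a call that was lost whichever library was left out (adjusted p from 0.0833 to 0.247). Sema3e, which binds Plxnd1 without a neuropilin, went the other way. It ranged from 0.311 RPKM in male A to 0.731 in male C and fell by 1.00 ± 0.29 (edgeR adjusted p = 0.028), with an adjusted p of 0.161 without male A. Sema3d, Sema3f and Sema3g were not called, with means from 0.497 to 1.12 RPKM.

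The 13 membrane-bound semaphorins were more abundant in sum, at 61.6 RPKM in female A and 53.8 in male A, against 53.0 in male B and 55.1 in male C, with 3 members called higher, 1 lower and 8 not called. Sema4d, a ligand of Plxnb1, stood at 17.2 RPKM in female A and 14.3 in male A, against 14.7 in male B and 14.5 in male C. The SD over the 3 males was 0.191 RPKM, and the pairs overlapped. Sema4f had 13.6, 10.9, 13.7 and 14.9 RPKM in the same order, with an edgeR adjusted p of 0.0749. Sema4b, another class 4 semaphorin, ranged from 7.38 RPKM in male A to 15.1 in male C and fell by 0.88 ± 0.15 (edgeR adjusted p = 0.00246).

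Sema6d, a transmembrane ligand of class A plexins, stood at 11.2 RPKM in female A and 12.6 in male A, against 4.85 in male B and 4.40 in male C. It rose by 1.25 ± 0.12 on the log2 scale (edgeR adjusted p = 0.000256), and its pairs did not overlap. Its relative Sema6a, which binds Plxna2 and Plxna4, ranged from 0.784 RPKM in male B to 2.33 in female A and rose by 0.99 ± 0.24 (edgeR adjusted p = 0.0132), a call lost without female A (0.121). Sema5a, for which Plxnb3 is a known receptor, had 2.81 RPKM in female A and 2.77 in male A, against 1.02 in male B and 0.955 in male C. Its rise of 1.38 ± 0.15 (edgeR adjusted p = 0.00044) was carried by both P2-mouse libraries alike. Sema7a, the only class 7 semaphorin and a ligand of Plxnc1, was low at 0.0523 to 0.216 RPKM. Of the low members Sema6c is uncertain, since 47.9% of its exon bases overlap another gene on the same strand.

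Of the neuropilins, which hold the semaphorin for the plexin, 1 of 2 was called. Nrp1, the receptor of Sema3a, stood at 32.2 RPKM in female A and 29.8 in male A, against 31.4 in male B and 27.0 in male C. The pairs overlapped, and the log2 fold change was -0.03 ± 0.10 (edgeR adjusted p = 0.854). Nrp2, the receptor of Sema3f, had 2.43 RPKM in female A and 2.78 in male A, against 0.749 in male B and 0.668 in male C. It rose by 1.77 ± 0.17 (edgeR adjusted p = 0.000285), a 3.40-fold difference. Nrp1 made up 94.8% of the neuropilin RPKM, so the family's sum moved little, from 27.7 to 34.6 RPKM. Of the fibroblast markers, the collagen gene Col3a1 differed most, and it stood higher in the same 2 libraries as Nrp2. It had 404 CPM in female A and 493 in male A, against 42.8 in male B and 44.3 in male C (log2 fold change 3.25). Dcn rose by only 0.28, and Col6a1 and Lum were not called (edgeR adjusted p = 0.0832 and 0.0867). Of the 13 Schwann cell markers 10 were also called higher and 1 lower, and of all genes tested 22.3% were called higher. Whether any of these markers bear on Nrp2 was not tested.

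The plexins, the signalling part of the semaphorin receptor, were expressed broadly, with 7 of 9 at 1 RPKM or more in all 4 libraries. Plxnc1, the receptor of Sema7a, led at 11 RPKM in female A and 12.3 in male A, against 10.3 in male B and 11.7 in male C. Plxna4, which carries the Sema3a signal with Nrp1 in sensory neurons, had 10.7, 7.00, 7.14 and 6.16 RPKM in the same order. For Plxnc1 the pairs overlapped, and for Plxna4 female A stood above the 3 males. Neither was called between the pairs (edgeR adjusted p = 0.85 and 0.234). Plxnb3 was the exception in the family, at 3.59 RPKM in female A and 4.18 in male A, against 0.496 in male B and 0.736 in male C. Both P2-mouse libraries lay several-fold above the embryo pair, and the log2 fold change of 2.54 ± 0.24 (edgeR adjusted p = 0.000255) was the largest of the 63 members in either direction, a 5.80-fold difference. Plxna1, Plxna2, Plxna3, Plxnb1, Plxnb2 and Plxnd1 were not called, with log2 fold changes from -0.57 to 0.28. Plxna1 shares 10.7% of its exon bases with an antisense gene and is uncertain.

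**Figure D3:**
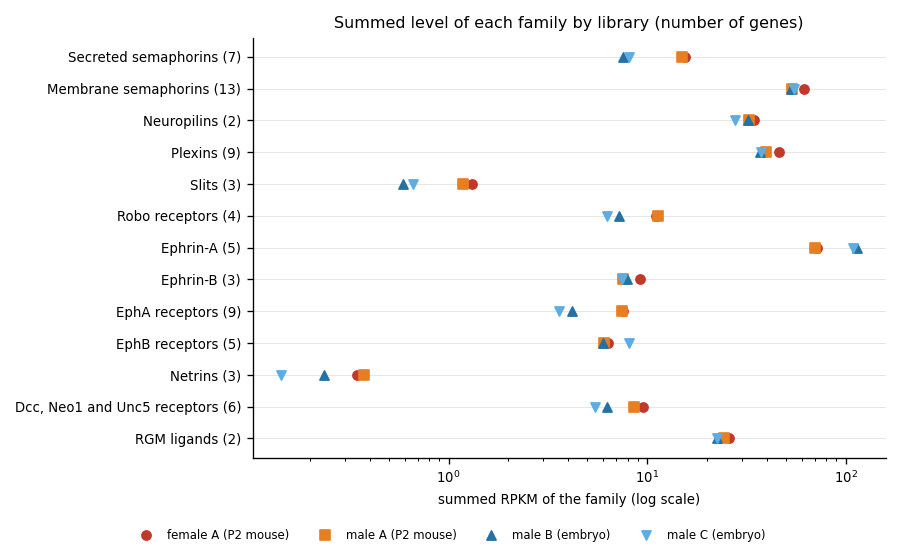
Summed RPKM (log axis) of each family in each library, with the number of genes in brackets. The secreted semaphorins, Slits, Robo, EphA and netrin families and the Dcc, Neo1 and Unc5 group stood higher in both P2-mouse libraries, the netrins at 0.376 RPKM or less. The neuropilins, plexins and repulsive guidance molecules also did, with pair means 1.12, 1.16 and 1.12 times those of the embryo pair. The ephrin-A family stood lower, at 71.8 and 70.2 RPKM against 114 and 109.

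The Slits, secreted ligands that repel axons and promote their branching, were all low, while their receptor Robo2 was not. Slit2 had 0.957 RPKM in female A and 0.946 in male A, against 0.325 in male B and 0.325 in male C. The libraries of a pair nearly coincided, and the rise was 1.44 ± 0.20 on the log2 scale (edgeR adjusted p = 0.00107). Slit1 stood at 0.156, 0.117, 0.134 and 0.265 RPKM in the same order and was not called (edgeR adjusted p = 0.373). Slit3 ranged from 0.0728 to 0.206 RPKM. Robo2 had 10.3 RPKM in female A and 10.5 in male A, against 6.15 in male B and 5.37 in male C and made up 90.0% of the Robo RPKM. It rose by 0.74 ± 0.10 (edgeR adjusted p = 0.00112), but with offsets for GC content and transcript length the value was 0.01 (adjusted p = 0.939). Robo1, another Slit receptor, had 0.575, 0.798, 0.927 and 0.786 RPKM and was not called (edgeR adjusted p = 0.224). Robo4, known from endothelial cells, ranged from 0.056 to 0.182 RPKM, and Robo3, known from commissural axons, had 1 count in female A and 0 in the others.

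The ephrin-A genes, whose products are held on the membrane by a lipid anchor, were the most abundant family, with 2 of 5 members called lower in the P2-mouse pair and 3 not called. They summed to 71.8 RPKM in female A and 70.2 in male A, against 114 in male B and 109 in male C. Efna1 stood at 31.7 RPKM in female A and 34.1 in male A, against 60.6 in male B and 60.1 in male C. The pairs were far apart and the libraries within each close, and Efna1 fell by 0.99 ± 0.10 on the log2 scale (edgeR adjusted p = 0.000379). Efna5 had 36.2 RPKM in female A and 32.4 in male A, against 49.3 in male B and 45.2 in male C and fell by 0.58 ± 0.099 (edgeR adjusted p = 0.0028). Efna1 was above Efna5 in the embryo pair and in male A, and below it in female A. Efna2, Efna3 and Efna4 were not called, with means of 1.87, 1.55 and 0.361 RPKM. The neighbours Efna3 and Efna4, whose upstream sequences stand beside that of Efna1 above, thus had far lower levels than Efna1. Each shares over 10% of its exon bases with an antisense gene (14.1% and 10.5%) and is uncertain, because the sources used here do not give the strand setting of the counting. Of the 10 sensory neuron markers, 5 were lower in the same 2 libraries as Efna1, among them Tubb3 at 2039 CPM in female A and 5515 in male B. Another 2 were higher, among them the sodium channel gene Scn9a at 691 and 389 CPM, and 3 were not called.

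The EphA receptors, which bind ephrin-A ligands, showed the opposite direction in sum, at 7.6 RPKM in female A and 7.51 in male A, against 4.2 in male B and 3.62 in male C. Epha7 made up 50.3% of it, at 4.06 RPKM in female A and 4.38 in male A, against 1.62 in male B and 1.46 in male C. The pairs did not overlap, and it rose by 1.34 ± 0.14 (edgeR adjusted p = 0.000402). Epha5, a receptor of Efna5, had 0.824, 1.32, 0.756 and 0.436 RPKM in the same order and was not called (edgeR adjusted p = 0.122). Epha2 stood at 0.541 RPKM in female A and 0.517 in male A, against 0.179 in male B and 0.172 in male C, on 71, 42, 19 and 20 counts. It rose by 1.47 ± 0.41 (edgeR adjusted p = 0.0215). The call was lost without female A, without male A and without male C, though the log2 fold change stayed at 1.45, 1.5 and 1.4.

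Epha10, a member of the family without kinase activity, had the largest fall of the 63 members. It stood at 0.134 RPKM in female A and 0.0958 in male A, against 0.429 in male B and 0.418 in male C, on 27, 12, 70 and 75 counts. Both embryo libraries lay above both of the others, and the gene fell by 1.97 ± 0.40 (edgeR adjusted p = 0.00576), with an adjusted p of 0.0518 without male A. Epha3 had the widest spread of any tested member, from 0.0781 RPKM in male C to 0.856 in female A. Its log2 fold change of 1.49 ± 0.67 missed the threshold (edgeR adjusted p = 0.111). Epha4 and Epha6 were not called, and Epha1 and Epha8 had at most 13 counts in any library and were not tested.

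Ephrin-B ligands span the membrane and signal back into the cell that carries them. Efnb2 had 5.14 RPKM in female A and 4.15 in male A, against 4.82 in male B and 3.59 in male C, and Efnb1 had 3.65, 2.90, 2.71 and 3.47 RPKM in the same order. The pairs overlapped for both, with log2 fold changes of 0.03 ± 0.20 and -0.03 ± 0.22. Among their EphB receptors, Ephb6, which lacks kinase activity, was the most abundant at 4.07 RPKM in female A and 4.34 in male A, against 4.54 in male B and 6.57 in male C. Ephb2, an active kinase, had 0.848, 0.785, 0.794 and 0.745 RPKM and hardly varied among the libraries. None of the 3 ephrin-B and 5 EphB genes was called between the pairs by edgeR, with adjusted p from 0.0813 for Ephb6 to 0.935 for Efnb1. With no filter on low counts, however, Ephb6 was called lower, as it was without male B.

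Netrins were scarce in these cells, and so was Dcc, the receptor that mediates attraction to netrin. Ntn1 had 0.199 RPKM in female A and 0.174 in male A, against 0.134 in male B and 0.0896 in male C, and Ntn5 had 0.129, 0.156, 0.0199 and 0.0544 RPKM. Ntn1 was not called (edgeR adjusted p = 0.348), Ntn4 and Ntn5 had too few counts to test, and Ntn5 shares 23.4% of its exon bases with an antisense gene. Dcc had 0 counts in female A and 1 in male A, against 2 in male B and 3 in male C. With no counts, female A allows up to 0.107 CPM of Dcc.

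Its relative Neo1, which also binds repulsive guidance molecules, stood at 4.30 RPKM in female A and 3.50 in male A, against 2.47 in male B and 2.54 in male C. The pairs did not overlap, and it rose by 0.52 ± 0.16 on the log2 scale (edgeR adjusted p = 0.0301). Unc5d, of the Unc5 family of repulsive netrin receptors, had 4.09 RPKM in female A and 3.55 in male A, against 2.57 in male B and 1.75 in male C and rose by 0.71 ± 0.20 (edgeR adjusted p = 0.0239). Both calls were lost without single libraries and with joint offsets for GC content and transcript length. Without female A the adjusted p was 0.238 for Neo1 and 0.155 for Unc5d, and without male A it was 0.0642 and 0.0852. For Unc5d it was also 0.0559 without male C. With GC and length offsets the log2 fold changes were 0.24 and 0.09. Unc5b and Unc5c were not called, and Unc5a had at most 5 counts.

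Rgmb, also called Dragon, is a membrane-anchored ligand of Neo1 and a co-receptor of bone morphogenetic proteins that is known from dorsal root ganglia. It stood at 25.7 RPKM in female A and 24.4 in male A, against 22.2 in male B and 22.3 in male C. Its highest library was 1.16 times its lowest, the narrowest spread among members with a mean of 1 RPKM or more, and it was not called (log2 fold change 0.06 ± 0.11, or -0.20 with GC and length offsets; edgeR adjusted p = 0.714 and 0.186). Rgma, its paralogue, had 0.0848, 0.0304, 0.14 and 0.159 RPKM in the same order on at most 15 counts. Rgmb thus made up 99.6% of the summed RPKM of the 2 genes.

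Across members, the direction of the difference went with base composition, as it did over all genes. The 14 members called higher had a median GC content of 47.2% and a median transcript length of 6734 bases, the 5 called lower 54.2% and 4032 bases, and the 44 not called 56.8% and 4872 bases. Spearman's rho between log2 fold change and GC content was -0.36 over the 63 members and -0.44 over 15474 genes. With length it was 0.26 and 0.27. The members share the same 4 libraries, so these values describe the libraries and carry no p. With offsets for GC content and length fitted in each library, edgeR called 9 members higher and 7 lower (background 16.0% and 16.6%). Robo2, Neo1, Unc5d, Sema3a and Sema6a lost their calls under the offsets, the last 2 with values of 0.86 and 0.70. Epha4 (-1.06, edgeR adjusted p = 0.0352) and Nrp1 (-0.42, edgeR adjusted p = 0.0167) were called lower with the offsets and under no other alternative.

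**Figure D4:**
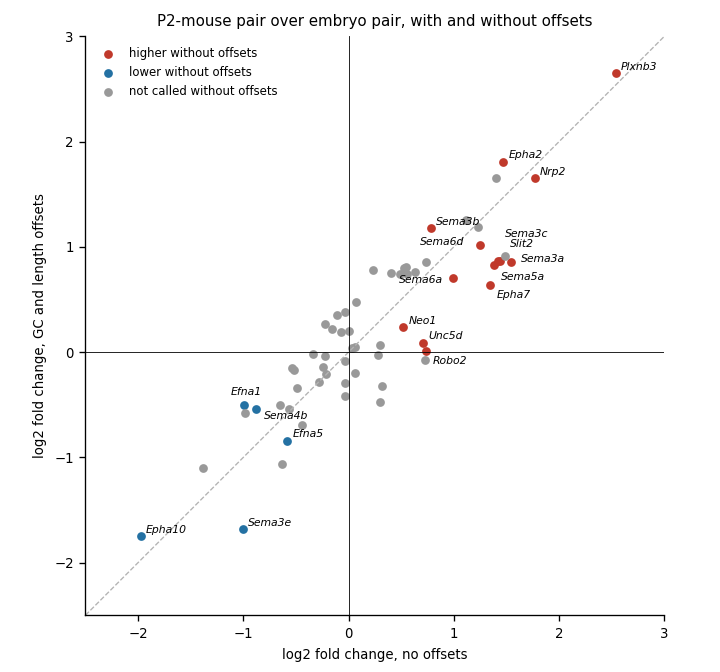
Log2 fold change of the P2-mouse pair over the embryo pair for the 63 tested members, without (x axis) and with (y axis) offsets for GC content and transcript length, coloured by the call without offsets. Plxnb3 and Nrp2 stayed near the dashed line of equal values, whereas Robo2 moved from 0.74 to 0.01 and Efna1 from -0.99 to -0.50.

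Of the 19 called members, 10 kept their call and direction under each of the 11 alternatives in which they were tested. Those 10 members were Sema3c, Sema5a, Sema6d, Slit2, Nrp2, Plxnb3 and Epha7, higher in the P2-mouse pair, and Efna1, Efna5 and Sema4b, lower. With the offsets their log2 fold changes were 0.87 for Sema3c, 0.83 for Sema5a, 1.02 for Sema6d, 0.87 for Slit2, 1.65 for Nrp2, 2.65 for Plxnb3 and 0.64 for Epha7. For Efna1, Efna5 and Sema4b they were -0.50, -0.84 and -0.54. Most of the 10 thus moved toward 0, Epha7 from 1.34 to 0.64, while Plxnb3 and Efna5 moved away from it. With sex as a term in the model, 8 members were higher and 5 lower (background 13.3% and 10.4%), and Plxna3 joined those called lower (-0.93, edgeR adjusted p = 0.0468).

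Genes that act below these receptors were read from 4 lists of effectors and partners. The background for each count is the share of all genes tested, 22.3% higher and 20.0% lower. Of 20 tested genes of semaphorin, plexin and neuropilin signalling, 5 were higher in the P2-mouse pair and 7 lower. Chl1, an adhesion molecule that binds Nrp1, had 54.8 RPKM in female A and 55.8 in male A, against 19.3 in male B and 17.6 in male C and rose by 1.47 ± 0.091 (edgeR adjusted p = 0.000134), or by 0.65 with the offsets. The kinase gene Fyn rose by 0.64, while Dpysl2 and Crmp1, of the collapsin response mediator family, fell by 0.64 and 0.50 (adjusted p for Crmp1 0.0627 without male A, and a value of -0.08 with the offsets). Of 22 Slit and Robo genes, 6 were higher and 4 lower. Flrt3, a membrane partner of Robo1, rose by 1.07 (0.66 with the offsets) and the exchange factor gene Sos1 by 0.77 (-0.02 with the offsets). Cap1, an actin regulator, fell by 0.83 and the kinase gene Pak1 by 0.33, the latter with an adjusted p between 0.112 and 0.222 without female A, male A or male B.

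Of 16 tested Eph and ephrin effectors, 6 were higher and 4 lower. Adam10, the protease that cleaves ephrins, had 56.6 RPKM in female A and 52.2 in male A, against 26.8 in male B and 23.7 in male C and rose by 0.99 ± 0.10 (edgeR adjusted p = 0.000318), or by 0.51 with the offsets. Rasa1 rose by 0.84, a call lost with the offsets (0.34, edgeR adjusted p = 0.051). Chn1, a Rac regulator below EphA4, fell by 0.37 and Rgs3 by 0.66, calls that were lost without female A (adjusted p = 0.259 and 0.0792) and without male A (0.0568 and 0.125), and for Chn1 without male C (0.0565). For Rgs3 the call was also lost with the offsets (adjusted p = 0.0644). Of 17 netrin, Unc5 and RGM genes, 4 were higher and 2 lower. The bone morphogenetic protein receptor genes Bmpr2 and Bmpr1a rose by 1.26 and 1.20 (0.40 and 0.53 with the offsets), and Maged1, which binds Unc5 receptors, fell by 0.84 (-0.50 with the offsets). Ablim3 fell by 0.52 (adjusted p = 0.0862 without male A and 0.0769 with the offsets). The 4 list medians lay between -0.25 and 0.28, against 0.02 over all genes.

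The comparison that the samples' labels name is that of the sexes. Of 64 members tested, edgeR called 0 higher and 0 lower in the female library against the 3 males (background 0% of 16708 genes), and the smallest adjusted p was 0.951. At an unadjusted p under 0.05 edgeR had 0 of the 64 members, against 0.772% of all genes. DESeq2 and limma-voom also called 0 members, limma-voom with 2 at an unadjusted p under 0.05. The 3 males span both pool descriptions, and edgeR's common coefficient of variation was 0.394 in this fit and 0.195 once the pool description entered the model. With that term edgeR again called 0 members, and 2 passed an unadjusted p of 0.05, against 1.62% of all genes. They were Plxna4 at a log2 fold change of 0.59 (female over male) and Unc5b at -1.43, with 0.195 RPKM in the female and 0.521, 0.535 and 0.371 in the males. Plxnb3 and Nrp2, the members with the largest rises between the pairs, stood at -0.24 and -0.21 with the term. Without male A the female is set against the embryo pair alone, sex and pool description are then 1 contrast, and 13 members were called, 10 higher and 3 lower (background 11.8% and 10.3%). The female is a single library assumed to vary like the males, and an absence of calls is no measure of likeness.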

How the data were processed

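RNA from sorted cells was amplified with a SMARTer low-input kit and sequenced, per the labels' protocols. Per the submitters' processing notes, featureCounts 1.4.5 (Subread) and GRCm38.p2 were used, and each deposited count is a whole number of reads. The deposited CPM, as recomputed here, scale each count to the library's total of gene counts. Per the file headers, the deposited RPKM divide CPM by exon length in kilobases, which recomputing gave again. No aligner, annotation release, strand setting or rule for multiply mapped reads is given in the sources used here.

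Symbols came from GENCODE M21 (97.3% of IDs matched), and the rule on symbols gave 71 members. Counts were tested over all genes with edgeR 4.0.16 in R 4.3.3 (TMM factors 0.961 to 1.048, filterByExpr with a minimum count of 10 and total of 15, quasi-likelihood F test, Benjamini-Hochberg threshold 0.05), with 2 residual degrees of freedom for the pairs and for the sexes. With both terms in the model 1 residual degree of freedom was left, and leaving a library out lowered it too. A call lost in those fits need not mean a changed value. RPKM values carry no TMM scaling. The SE of a log2 fold change rests on a spread moderated across genes. Alternatives were relative log expression factors, no low-count filter, a filter at a mean of 5 CPM, DESeq2 1.42.0, limma-voom (limma 3.58.1), sex or pool description as a term, each library left out, and offsets for GC content and transcript length (mgcv 1.9.3). The labels give each library as 1 animal, and each was counted as 1 sample.

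Values in every library are given for the 2 most abundant members of each family and for members called with a log2 fold change of 1 or more in size. Of each effector list, up to 2 called genes per direction with the highest mean RPKM are named. The symbol rule uses no measured value, but it, the lists and the tests were chosen with earlier results of these data known. In simulations with 50 changed genes per fold, the test of the pairs recovered 12% at 1.5-fold, 52% at 2-fold and 100% at 3-fold, and called 8 of 15368 unchanged genes. The simulations changed few genes, gave every gene the same spread and held no trend with GC content or length. In the real comparison of the pairs 42.3% of 15568 genes were called, so the 8 calls give no rate of false calls for the real data. The female test recovered 34% at 2-fold and 84% at 3-fold, and called 5 of 16508. Its simulated males had no split by pool description, and the same spread was drawn for both tests. The real fits had common coefficients of variation of 0.394 for the sexes and 0.162 for the pairs. The female rates thus do not tell how many changes that test would find in the real libraries. Exon overlap was read from the exon coordinates deposited with the counts: 5 members had 10% or more of their exon bases in another gene's exons. In the transcripts of GENCODE M21, 0 members shared 5% or more of their 50-base words with other genes. Promoter sequences are from RefSeq.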

Additional observations from a re-analysis of the deposited data

How the results depend on the processing

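Between the pairs, the number of members called higher (14) was 8 with sex as a term and 9 with GC and length offsets, and the number called lower (5) was 8 with no filter on low counts and 3 with a mean of at least 5 CPM, where 36 members were tested. Leaving out each library in turn gave 13 to 22 calls in all, 8 to 15 higher and 3 to 7 lower. For the sexes it gave 0 to 13 calls, with 13 without male A. The number of members at 1 RPKM or more in all libraries (27) was 36 at 0.5 RPKM, 19 at 2 RPKM, 27 with TMM-scaled CPM per kilobase and 27 to 28 with a library left out. None of the 19 called members turned sign under the alternatives run. Signs turned for other genes: Nrp1 (-0.03) to 0.02 without male A and 0.07 without male B, in a range of -0.18 to 0.07 over the libraries left out, Rgmb (0.06) to -0.20 and Sos1 (0.77, called) to -0.02 with the offsets. Members not called also turned, among them Epha5 (0.73 to -0.07) and Unc5c (0.32 to -0.32) with the offsets and Ephb1 (1.12 to -0.25) with sex as a term. The cause was not tested. Of the 19 called members, 7 lost their call with sex as a term, 5 with the offsets, 2 with DESeq2 and 0 with relative log expression factors or limma-voom. With no filter on low counts, edgeR also called Epha3, Epha5 and Sema5b higher and Ephb6, Plxna3 and Sema4f lower. Low counts limit some members: 8 of the 71 were not tested between the pairs. The test of the pairs found few changes of 1.5-fold on simulated data. No paired analysis was possible because the female and the male libraries share only the letter A.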
